A study of Mus musculus with 4 samples.

Results

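The genes described here are 57 mouse developmental regulators outside the Hox clusters, of 21631 protein-coding genes on the 19 autosomes and X. They were taken as a fixed list of symbols: 6 Dlx, 8 Pax and 5 Nkx genes, the 5 genes from Six2 to Six6, 8 LIM homeobox (Lhx and Isl), 7 TALE homeobox (Irx and Meis), 4 paired-like (Pitx, Otx and Gsc) and 7 Tbx genes, with a last group of 7 Emx, En, Gbx and Cdx genes. A peak was given to a gene when it lay inside it or within 1 kb of its first or last base, called a gene end. A peak further out, called distal, was given to the gene whose end was the nearest protein-coding gene end within 100 kb. In this way a peak could be given to more than 1 gene. By this rule the genes held 257 of 44139 Gata2cKO peaks and 299 of 49394 Gata2WT peaks.

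The peaks came from ATAC-seq, in which the Tn5 transposase puts sequencing adapters into accessible DNA, of germ cells from female C57BL/6J mouse ovaries at E14.5 (embryonic day). In Gata2cKO embryos a floxed Gata2, a zinc finger factor that binds GATA motifs, was deleted by Cre recombinase under the control of Prdm1, which is switched on in primordial germ cells. Gata2WT embryos were labelled wild type for Gata2. Both genotypes came from crosses of males carrying Prdm1-Cre and 1 floxed allele with females carrying floxed alleles on both chromosomes, so every embryo inherited at least 1 floxed allele; the labels do not say which Gata2WT embryos carried Cre or which part of Gata2 was removed. Anti-SSEA1 magnetic beads were used to enrich for germ cells, about 10000 cells went into each library, and the labels still give the cell type as ovarian cells. There were 4 samples, 2 per genotype, but the values analysed here stand in 1 combined peak list per genotype. No replicate error could be had, no test between genotypes was made, and every interval below is a 95% Wilson interval that covers counting error only. Absence of a peak from a list means that the site missed the peak caller's cutoff, not that its chromatin was shut.

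Homeobox, paired-box and T-box genes encode transcription factors that bind DNA through a homeodomain, a paired domain or a T-box and set the identity of organs and body regions in the embryo. In pluripotent and germ line cells most of them are silent, and their CpG-rich starts are a well-known place of binding by Polycomb repressor complexes. A few act in structures beside the gonad, such as Lhx1 in the Müllerian duct and Pax2 and Pax8 in the mesonephric and genital ducts.

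The genome background was 2.01 fragments in the Gata2cKO list and 2.19 in the Gata2WT list, and the median summit pileup over all peaks was 19 in both. Gata2 itself had 3 peaks in the Gata2cKO list and 5 in the Gata2WT list, with its gene-end peak in the Gata2WT list alone. Of 12 germ cell marker genes, 11 carried one in both lists, and Nanos3 had none. The strongest such peak per gene had a median −log10 q of 33.4 in Gata2cKO and 37.4 in Gata2WT. Over all protein-coding genes with a gene-end peak these medians were higher, at 37.0 and 45.1. Gene-end peaks at somatic marker genes were read against all protein-coding genes, of which 62.8% had one in both lists. Both lists held such a peak at 7 of 10 supporting-cell markers, 7 of 8 mesonephric, 4 of 8 stromal, 5 of 8 endothelial, 4 of 8 erythroid and 1 of 8 macrophage markers. Among supporting-cell markers, 4 of 32 Gata2cKO peaks (12.5%) and 20 of 48 Gata2WT peaks (41.7%) had no partner in the other list, against 19.7% and 28.5% over all peaks. In the other 5 somatic lists these shares ran between 12.5% and 25.0% in Gata2cKO and between 10.0% and 31.4% in Gata2WT, with mesonephric markers at 7 of 30 Gata2cKO and 6 of 29 Gata2WT peaks. Several of the 57 genes are active in somatic tissue, and the part of such cells in the values below was not tested: in pooled cells, fewer cells of a type and less accessible DNA per cell cannot be told apart.

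All 57 genes had at least 1 peak in both lists, and most of their sites were shared. A gene held a median of 4 peaks in Gata2cKO (1 to 12) and 4 in Gata2WT (1 to 16), against 1 and 2 over all protein-coding genes. Pax2, which patterns kidney and genital tract, held the most in Gata2cKO with 12 peaks, and 12 in Gata2WT. Pax5, the B lymphocyte regulator, held 11 in Gata2cKO and 16 in Gata2WT. Pitx1, which specifies the hindlimb, had 10 and 13, and Lhx2, a forebrain and eye factor, had 10 in both. These genes also lie in wide surroundings: the stretch of genome from which a peak could be given to a gene was 118 kb in the median, against 49 kb over all genes. Per 100 kb of that stretch they held 3.62 peaks in Gata2cKO and 4.21 in Gata2WT, against 2.39 and 2.66 over all genes.

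**Figure D1:**
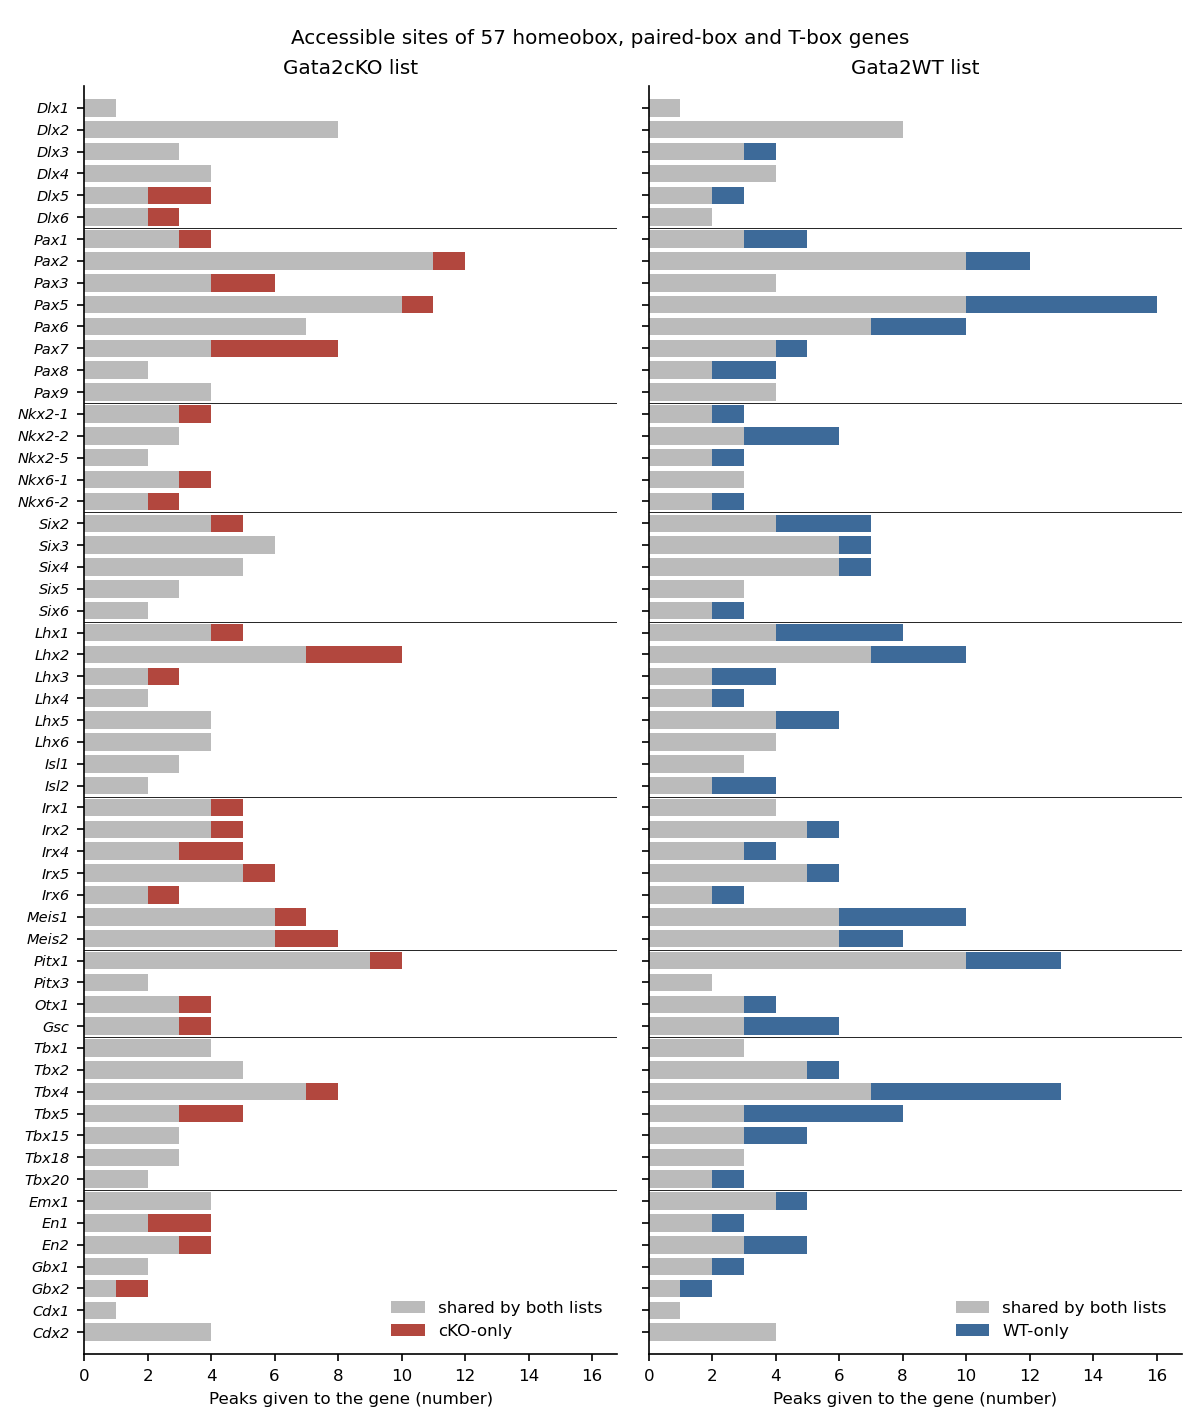
Number of peaks given to each of the 57 genes in the Gata2cKO list (left) and the Gata2WT list (right); rows are genes, ruled off by family, and colour marks peaks with no overlapping peak in the other list. Every row has a grey part in both panels, and the longest bar is the 16 Gata2WT peaks of Pax5.

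Peaks with no overlap in the other list are called cKO-only or WT-only. Of the genes' Gata2cKO peaks, 40 of 257 were cKO-only (15.6%, 11.6 to 20.5), against a background of 19.7% over all Gata2cKO peaks. Of their Gata2WT peaks, 82 of 299 were WT-only (27.4%, 22.7 to 32.7), against a background of 28.5%. The WT-only share thus lay near the background, and the cKO-only share lay below it with an interval that reached it. Under another rule both lay above it: with highest summits within 250 bp counted as shared, 31.1% were cKO-only and 40.8% WT-only, against 26.9% and 34.6% of all peaks. The cKO-only share was lowest relative to the background inside the genes, at 10 of 66 peaks (15.2%, 8.44 to 25.7) against 27.8% of all peaks inside genes. Distal peaks had 25 of 120 cKO-only (20.8% against 25.0%) and 44 of 139 WT-only (31.7% against 34.8%). The inside and distal backgrounds are not fully like for like. A peak of these genes was placed by its own gene alone. In the background each peak was placed by all genes, with a gene end put before inside and inside before distal. This left 16442 inside and 11885 distal Gata2cKO peaks, against 16816 and 13177 when placed gene by gene. Background shares by the latter rule were not computed. At gene ends 5 of 71 peaks were cKO-only and 5 of 71 were WT-only, 7.04% each, against 4.51% and 7.17% over all gene-end peaks.

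Single-list peaks of these genes were mostly weak. Strength is given here as the authors' −log10 q, where a higher value means a pileup less likely under the local background of the same list. Below a −log10 q of 5, 34 of 113 Gata2cKO peaks were cKO-only (background 43.9%) and 68 of 130 Gata2WT peaks were WT-only (background 58.5%). At 10 and over, 1 of 70 Gata2cKO peaks was cKO-only (background 0.802%) and 1 of 105 Gata2WT peaks was WT-only (background 1.3%). For a −log10 q of 2 to 5, 18 of 83 Gata2cKO peaks were cKO-only (21.7%, 14.2 to 31.7), against 38.9% of all Gata2cKO peaks of that strength. The WT-only share in that range was 48 of 102 (47.1%, 37.7 to 56.7), against 52.5%. If each peak had the single-list share of all peaks of its strength, 60.5 cKO-only and 89.8 WT-only peaks would be counted, against the 40 and 82 found. These values by strength use the 1 bp overlap alone. With highest summits within 250 bp counted as shared, both overall shares lay above the background. No count by strength was made under that rule.

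The gene ends themselves were occupied in both lists for most of the genes. A gene-end peak stood in both lists for 46 of 57 genes (80.7%, 68.7 to 88.9), against 62.8% of all protein-coding genes. The Gata2cKO list alone had one at Pax3 and Pax7 (2 genes, background 1.3%), and the Gata2WT list alone at Pax5 and Tbx4 (2 genes, background 2.29%). In 7 genes neither list had one, against 33.6% of all genes: Pax9, Nkx2-1, Six3, Lhx4, Irx2, Irx5 and Tbx5. All of these 7 had peaks elsewhere. Irx2 and Lhx4, for example, carried peaks of 1304 bp and 2432 bp in Gata2cKO, and 1535 bp and 2509 bp in Gata2WT, over an annotated start that lies inside the gene span.

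The 4 peaks that set the gene ends apart were all weak. Pax3, a neural crest and muscle progenitor factor, had its cKO-only gene-end peak at chromosome 1, 78196571 to 78197338, with a summit pileup of 13 fragments and a −log10 q of 1.98. Pax7, its close relative in muscle stem cells, had one at chromosome 4, 139832501 to 139832868, with 12 fragments and 1.47. In the Gata2WT list, Pax5 had a gene-end peak at chromosome 4, 44710937 to 44711213, with 18 fragments and a −log10 q of 2.86. Tbx4, which acts in hindlimb and lung, had one at chromosome 11, 85885957 to 85886618, with 27 fragments and 4.55. None of the 4 reached a −log10 q of 5, whereas each gene had at least 1 shared peak of 10 or more in both lists. Coordinates are those of GRCm38.

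**Figure D2:**
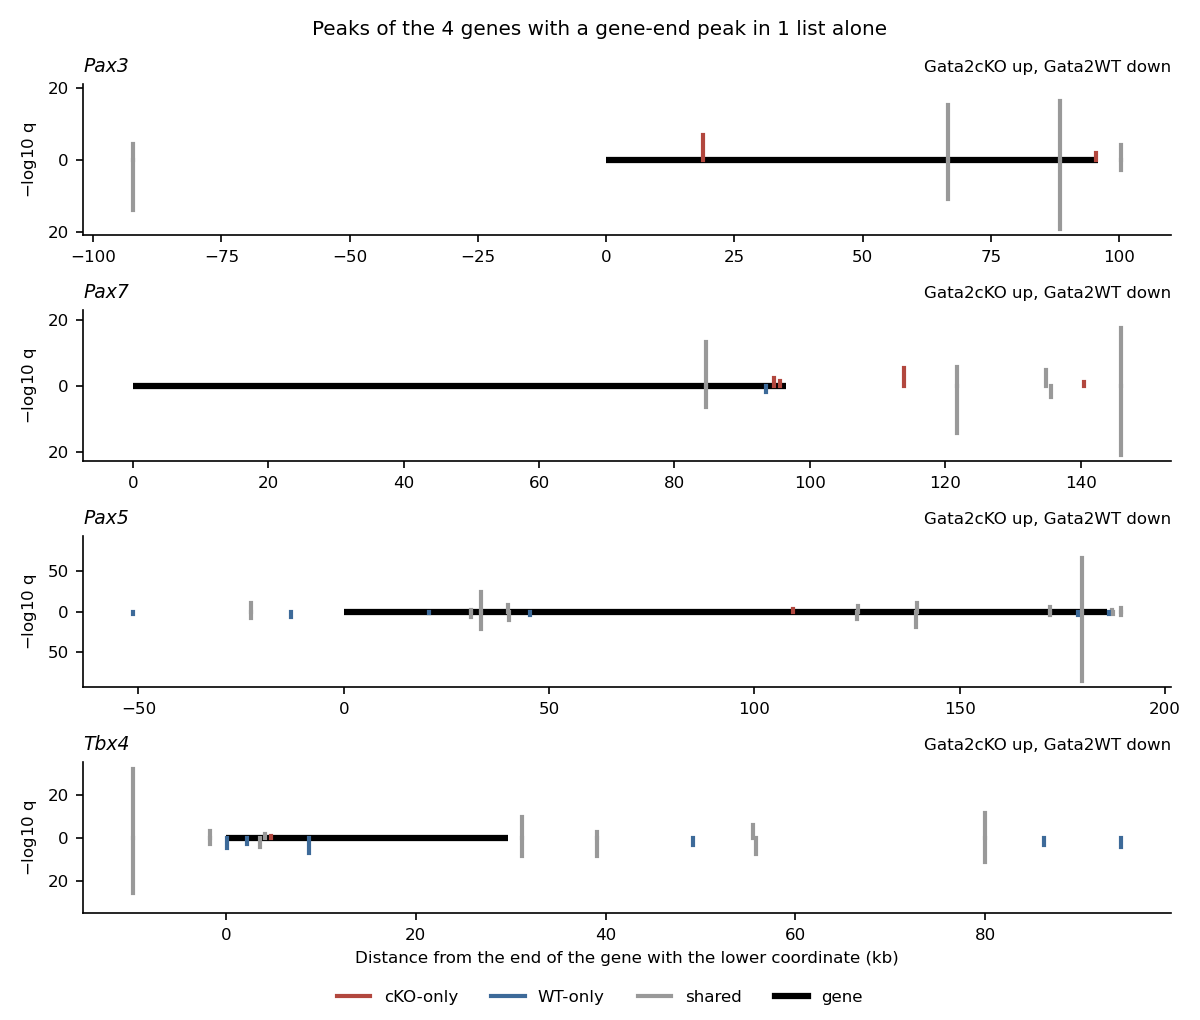
Peaks of Pax3, Pax7, Pax5 and Tbx4 by distance of the summit from the gene end with the lower coordinate (kb), with the −log10 q drawn upward for Gata2cKO and downward for Gata2WT; the black bar is the gene. The coloured single-list peaks are short next to the tall shared ones, such as the Pax5 peak of 66.6 in Gata2cKO and 84.7 in Gata2WT.

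Gene-end peaks of these genes were far weaker than gene-end peaks in general, in both lists alike. Their median −log10 q was 7.79 in Gata2cKO and 11.7 in Gata2WT (71 peaks each), against 29.1 and 35.2 over all gene-end peaks. The median summit pileup was 26 fragments in Gata2cKO and 36 in Gata2WT, against 52 and 62. Their fold enrichment over the local background was 4.26 in Gata2cKO and 4.58 in Gata2WT in the median, against 7.98 and 8.12. With the strongest gene-end peak taken for each gene, the median −log10 q was 11.8 in Gata2cKO and 16.9 in Gata2WT, against 37.0 and 45.1 over all genes with such a peak. Width differed less, at a median of 768 bp in Gata2cKO and 851 bp in Gata2WT, against 882 and 923 bp.

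Away from gene ends no such gap in −log10 q was seen. Peaks inside the genes had a median −log10 q of 5.01 in Gata2cKO and 5.55 in Gata2WT, against 4.86 and 4.76 over all peaks inside genes. Their distal peaks had 5.10 in Gata2cKO and 4.96 in Gata2WT, against 5.16 and 4.82.

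**Figure D3:**
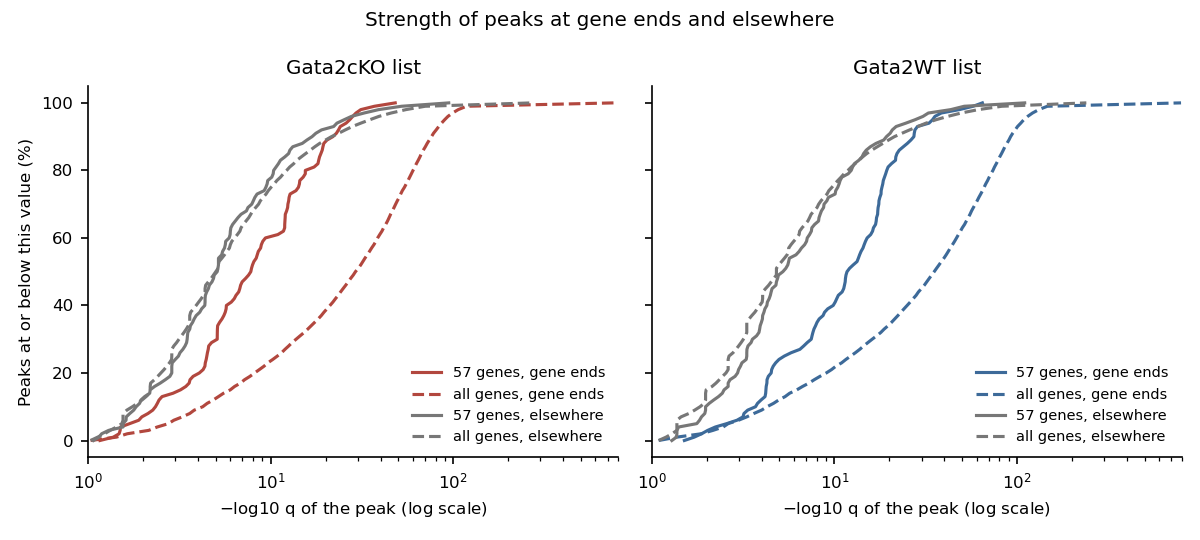
Share of peaks at or below each −log10 q (log scale) in the Gata2cKO list (left) and the Gata2WT list (right), for gene-end peaks (coloured) and all others (grey) of the 57 genes (solid) and of all genes (dashed). The 2 grey lines run together, and the solid coloured line lies left of the dashed one, with medians of 7.79 against 29.1 in Gata2cKO and 11.7 against 35.2 in Gata2WT.

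Some gene-end peaks were nevertheless broad. The 5 genes with the widest were Six4, Tbx18, Pitx3, Tbx1 and Meis2. Tbx18, which acts in the epicardium, had one of 2053 bp in Gata2cKO and 2170 bp in Gata2WT. Pitx3, a lens and midbrain dopamine neuron factor, had one of 2076 bp in Gata2cKO and 2135 bp in Gata2WT. At the other 3 genes the widest peak met a narrower or a divided one. The Gata2cKO peak of Six4, a muscle factor, was 2158 bp wide and overlapped Gata2WT peaks of 467 and 1485 bp. At Tbx1, which acts in the pharyngeal arches, Gata2cKO peaks of 335 and 743 bp lay at the end where a Gata2WT peak was 1719 bp wide. The other Tbx1 end had peaks of 1251 bp in Gata2cKO and 1326 bp in Gata2WT. At Meis2, a limb and brain factor, a Gata2cKO peak of 552 bp lay 1.38 kb from the gene, and so counted as distal, inside the interval of a Gata2WT gene-end peak of 1678 bp. The other Meis2 end had peaks of 523 bp in Gata2cKO and 585 bp in Gata2WT.

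Start sites were then looked at by sequence. RefSeq promoter windows of GRCm38.p6, from 250 bases before to 50 after an annotated start, were matched for 40 of the 57 genes (49 windows). The windows had a median GC content of 61.7% and a ratio of observed to expected CpG of 0.731, against 56.7% and 0.574 over 21045 windows of all protein-coding genes. A window is called CpG-rich here when that ratio is above 0.6, which held for 38 of 49 windows (77.6%) against 48.1%. Of these 38, 25 carried a peak in the Gata2cKO list and 25 in the Gata2WT list (65.8%, 49.9 to 78.8, in each). Over all CpG-rich windows the shares were 93.5% in Gata2cKO and 93.9% in Gata2WT. Where such a window had a peak, its median −log10 q was 18.1 in Gata2cKO and 20.3 in Gata2WT for these genes, against 45.4 and 56.2.

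**Figure D4:**
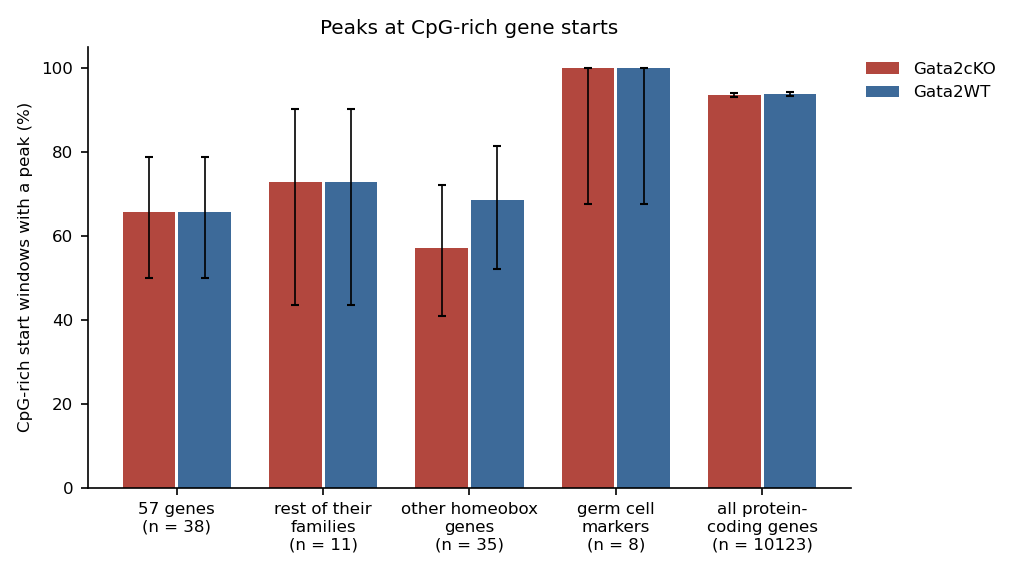
Share of CpG-rich start windows with a peak in Gata2cKO (red, left of each pair) and Gata2WT (blue), for 5 sets of genes; n is the number of windows and bars span 95% Wilson intervals. The 57 genes stand at 65.8% in both lists, germ cell markers at 8 of 8 windows, and all protein-coding genes at 93.5% and 93.9%.

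Peaks were missing from the same CpG-rich windows in both lists, with few exceptions. Neither list had a peak in 12 of the 38 windows, which belong to En1, Lhx2, Lhx3, Lhx6, Meis2, Nkx2-2, Pax1, Pax2, Pax6, Six3 and Tbx1. A window of Lhx6, an interneuron factor, met a Gata2cKO peak alone, and the window of Pax5 met a Gata2WT peak alone. Both cases turned on the window edge. The Lhx6 peak was shared, and its Gata2WT partner began at 36104822, past the window's last coordinate of 36104783. The Pax5 peak began at 44710937 in a window ending at 44710944, with its summit 379 bases from the start. Several genes with an uncovered window have another start that was covered, and many windows had a peak close by. Where a peak met a window, its summit lay a median of 210 bases from the start in Gata2cKO and 234 in Gata2WT, against 129 and 135 over all windows. With 500 more bases on either side, 78.9% of the CpG-rich windows met a peak in Gata2cKO and 81.6% in Gata2WT, against 96.1% and 96.5%.

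Windows of 5 genes are shown because they put covered and uncovered CpG-rich starts side by side; capitals mark every CG dinucleotide and the GATA motifs. Isl1 (motor neuron and heart progenitor factor, 37 CG) and Gbx2 (hindbrain factor, 27 CG) were covered in both lists. Lhx2 has an uncovered upstream start (34 CG) and a covered inner start (29 CG). En1 (midbrain and hindbrain factor, 23 CG) was uncovered in both, and Pax5 (23 CG) met only the edge of the weak Gata2WT peak. All are from RefSeq, build GRCm38.p6, written 5′ to 3′ on the strand of the gene.
Isl1 start window, chr13:116309639-116309938, minus strand: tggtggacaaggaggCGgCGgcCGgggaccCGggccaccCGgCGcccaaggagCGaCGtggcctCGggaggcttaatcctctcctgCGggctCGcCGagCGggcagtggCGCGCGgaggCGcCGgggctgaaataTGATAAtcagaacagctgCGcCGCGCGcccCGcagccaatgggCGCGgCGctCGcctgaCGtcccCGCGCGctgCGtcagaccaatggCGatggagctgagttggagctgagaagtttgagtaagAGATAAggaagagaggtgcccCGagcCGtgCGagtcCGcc
Gbx2 start window, chr1:89931127-89931426, minus strand: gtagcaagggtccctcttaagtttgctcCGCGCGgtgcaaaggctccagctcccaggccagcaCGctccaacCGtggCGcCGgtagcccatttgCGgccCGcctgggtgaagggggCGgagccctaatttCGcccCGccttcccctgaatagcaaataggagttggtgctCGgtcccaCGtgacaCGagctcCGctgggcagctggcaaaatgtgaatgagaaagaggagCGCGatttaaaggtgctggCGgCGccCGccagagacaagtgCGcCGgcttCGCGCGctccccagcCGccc
Lhx2 start window, chr2:38351058-38351357, plus strand: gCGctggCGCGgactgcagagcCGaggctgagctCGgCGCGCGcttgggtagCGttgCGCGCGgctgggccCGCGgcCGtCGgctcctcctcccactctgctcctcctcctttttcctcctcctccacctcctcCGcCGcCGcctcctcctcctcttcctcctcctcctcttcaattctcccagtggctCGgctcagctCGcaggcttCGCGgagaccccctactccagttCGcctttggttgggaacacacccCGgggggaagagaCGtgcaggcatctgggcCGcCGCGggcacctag
Lhx2 start window, chr2:38339031-38339330, plus strand: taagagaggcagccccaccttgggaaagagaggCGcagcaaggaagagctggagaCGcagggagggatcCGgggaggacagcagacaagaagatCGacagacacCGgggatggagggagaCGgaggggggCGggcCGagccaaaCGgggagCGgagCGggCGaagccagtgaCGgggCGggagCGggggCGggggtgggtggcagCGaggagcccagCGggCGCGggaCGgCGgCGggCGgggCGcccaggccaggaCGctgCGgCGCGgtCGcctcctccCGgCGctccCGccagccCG
En1 start window, chr1:120602237-120602536, plus strand: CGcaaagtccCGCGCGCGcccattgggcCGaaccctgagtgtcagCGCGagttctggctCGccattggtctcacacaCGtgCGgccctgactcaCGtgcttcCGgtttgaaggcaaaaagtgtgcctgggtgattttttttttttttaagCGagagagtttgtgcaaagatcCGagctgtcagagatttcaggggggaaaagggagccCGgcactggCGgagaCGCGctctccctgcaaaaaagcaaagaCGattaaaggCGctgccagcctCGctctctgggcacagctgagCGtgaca
Pax5 start window, chr4:44710645-44710944, minus strand: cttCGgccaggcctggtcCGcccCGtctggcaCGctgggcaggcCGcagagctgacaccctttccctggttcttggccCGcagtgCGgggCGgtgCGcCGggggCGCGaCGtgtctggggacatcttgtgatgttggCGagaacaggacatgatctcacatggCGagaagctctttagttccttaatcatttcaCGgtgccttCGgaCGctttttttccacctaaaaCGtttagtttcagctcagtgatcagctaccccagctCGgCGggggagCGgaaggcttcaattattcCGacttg

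The covered windows shown lay in strong peaks. The Isl1 window lay in a peak with 74 fragments and a −log10 q of 48.1 in Gata2cKO, and 87 fragments and 54.5 in Gata2WT. The Gbx2 window lay in a peak with 71 fragments and 32.3 in Gata2cKO, and 119 fragments and 64.6 in Gata2WT. The inner Lhx2 window lay in a peak of 87 fragments and 37.4 in Gata2cKO, and 110 fragments and 46.8 in Gata2WT. CG number alone did not order these windows: the uncovered upstream Lhx2 window held more CG than the covered inner one. Next to that uncovered window, a peak began at 38339371 in both lists, with 16 fragments and 4.56 in Gata2cKO and 18 fragments and 5.03 in Gata2WT. Near the uncovered En1 window the gene-end peak had 28 fragments and 8.49 in Gata2cKO, and 47 fragments and 18.4 in Gata2WT.

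Short motifs were searched on both strands in the 49 windows. A GATA motif was in 8 of 49 (16.3%), against 25.8% of all windows. It was taken as the letters AGATAA, or instead the letters AGATAG, as well as the letters TGATAA, or instead the letters TGATAG. The T-box letters AGGTGT were in 2 of 49 (4.08%) against 12.8%, and the homeodomain core TAATTA was in 0 of 49 against 4.47%. A match is a description of letters in these windows only. The 49 windows were richer in GC, at a median of 61.7% against 56.7%, and the shares were not adjusted for it. Some genes counted with more than 1 window. Among the windows shown, Isl1 alone holds GATA motifs, 2 of them.

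At shared sites the Gata2cKO pileup was mostly the lower one, as it was over the whole genome. The genes had 217 shared sites, counted over Gata2cKO peaks. The −log10 q was higher in Gata2cKO at 69 of them (31.8%, 26.0 to 38.3), against a background of 34.5%. At gene ends it was higher in Gata2cKO at 17 of 66 (25.8%, 16.7 to 37.4), against a background of 22.3%. The median log2 ratio of summit pileups, Gata2cKO over Gata2WT, was −0.30 for these genes and −0.22 over all shared sites. At gene ends it was −0.34 for these genes and −0.30 over all. These pileups were not scaled between lists, so they are set side by side and no change is read from them.

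The pairs with pileups furthest apart were searched for, and the genes named for them were chosen after their values were seen. At 10 of 217 sites the Gata2cKO pileup was at most 0.5 times that in Gata2WT (4.61%, 2.52 to 8.27), against a background of 2.21%. At 0 of 217 was it at least 2 times as high (interval up to 1.74%), against a background of 0.517%. The most unequal site lay beside Dlx4, a factor of placenta and craniofacial tissue. Its Gata2cKO peak at chromosome 11, 95138460 to 95138912, had 15 fragments and a −log10 q of 4.38, against 67 fragments and 36.5 for the Gata2WT peak at 95138033 to 95139443. It was the only site of these genes at or below 0.25 times, a level met by 11 of 35429 shared sites in all.

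The other 9 sites at or below 0.5 times belonged to Isl2, Pax9, Lhx1, Meis2 (2 sites), Nkx2-5, Emx1, Meis1 and Lhx2. The gene-end peak of Isl2, a motor neuron factor, lay near the last base of the gene, not at its start. It had 22 fragments in Gata2cKO and 53 in Gata2WT, with a −log10 q of 4.49 and 18.0. The shared peak over the annotated Isl2 start had 64 fragments and 28.5 in Gata2cKO, and 74 fragments and 25.1 in Gata2WT. The gene-end peak of Emx1, a cortical factor, had 29 fragments in Gata2cKO and 63 in Gata2WT, with 7.48 and 27.9. A distal site of Lhx1 had 14 fragments in Gata2cKO and 32 in Gata2WT. In the other direction, the most unequal site was distal to Irx2, 29.7 kb from the gene at chromosome 13, 72594121 to 72594749. It had 47 fragments and a −log10 q of 33.2 in Gata2cKO, against 24 fragments and 12.4 in Gata2WT.

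**Figure D5:**
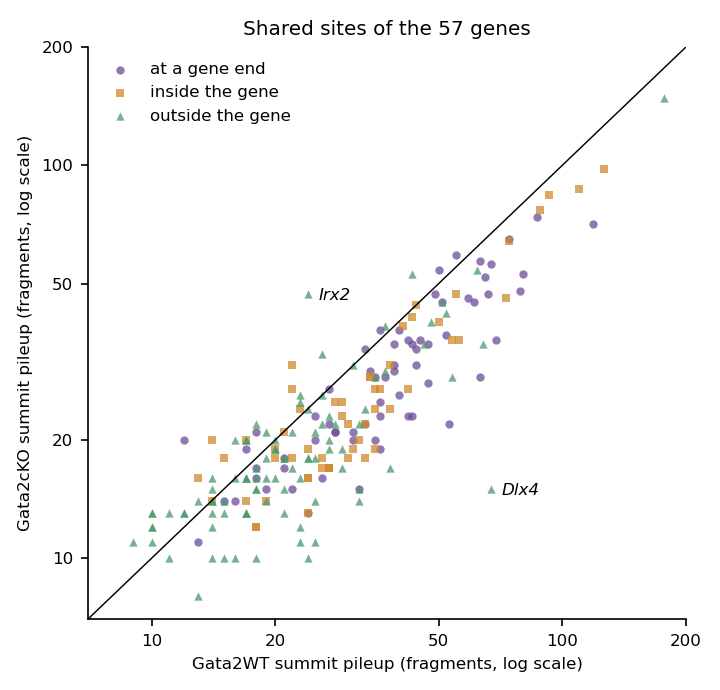
Summit pileup (fragments, log scales) at the 217 shared sites of the 57 genes, Gata2cKO on the vertical and Gata2WT on the horizontal axis, by place; the line marks equal pileups. Most points lie below the line, and the labelled sites are those of Dlx4 (15 in Gata2cKO, 67 in Gata2WT) and Irx2 (47 and 24).

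Summits of shared sites sat less exactly on each other than elsewhere. They lay a median of 77 bp apart between lists, against 46 bp over all shared sites, and within 100 bp of each other at 57.6% of sites against 71.2%. The gap was not the same at every strength. At gene-end pairs with a mean −log10 q of 20 and over, the median distance was 53.5 bp for the 10 pairs of these genes and 25 bp over all such pairs. At 10 to 20 it was 49 bp for 26 pairs against 53 bp. Below 10 it was 133.5 bp for 30 pairs against 81 bp, and 10 of these 30 Gata2cKO peaks (33.3%) had more than 1 summit, against 15.7% over all such pairs.

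The Dlx genes, forebrain, jaw and limb factors, had 3 of 23 Gata2cKO peaks cKO-only and 2 of 22 Gata2WT peaks WT-only. With the lists at equal length, the longer Gata2WT list losing its weakest peaks, the counts were 3 of 23 and 0 of 20. Family counts here and below stand against backgrounds over all peaks of 19.7% cKO-only and 28.5% WT-only. At equal list lengths these backgrounds were 22.8% and 23.1%. Dlx1, Dlx2 and Dlx4 shared every peak. Dlx2 held 8 in each list, 7 of them distal, with the farthest 91.6 kb from the gene in Gata2WT. Dlx5 had the most single-list peaks of the family, 2 cKO-only and 1 WT-only, and 1 of the cKO-only peaks lay at its gene end with 16 fragments and a −log10 q of 2.42. Dlx1 and Dlx2, Dlx3 and Dlx4, and Dlx5 and Dlx6 are neighbouring pairs, so that a distal site between them went to the nearer gene and the counts of a pair are not independent.

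The Pax genes, which act in brain, eye, kidney, muscle, thyroid and lymphocytes, had 9 of 54 Gata2cKO peaks cKO-only and 16 of 60 Gata2WT peaks WT-only. Pax5 and Pax7 leaned opposite ways, Pax5 with 1 cKO-only and 6 WT-only peaks and Pax7 with 4 cKO-only and 1 WT-only peaks. The strongest Pax site was inside Pax5 at chromosome 4, 44703892 to 44704811 in Gata2cKO, with 98 fragments and a −log10 q of 66.6, against 126 fragments and 84.7 in Gata2WT. Pax3 carried the family's strongest cKO-only peak, inside the gene with 15 fragments and 6.89. Pax1, a vertebral column factor, carried the strongest WT-only peak, distal with 18 fragments and 8.74. All 4 sites of Pax9, which acts in teeth and pharyngeal pouches, were shared.

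The 5 Nkx genes had 3 of 16 Gata2cKO peaks cKO-only and 6 of 18 Gata2WT peaks WT-only. Nkx6-1, a motor neuron and beta cell factor, had the strongest cKO-only peak of all 57 genes, at chromosome 5, 101606982 to 101607357, 51.8 kb from the gene. It had 19 fragments and a −log10 q of 10.2. Nkx2-2, a ventral neural tube and islet factor, had 3 WT-only peaks, the strongest inside the gene with 25 fragments and 8.37. Nkx2-5, the heart factor, had a WT-only gene-end peak with 21 fragments and 4.74 beside a shared one.

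The members Six2 to Six6, eye, kidney and muscle factors, had 1 of 21 Gata2cKO peaks cKO-only (4.76%, 0.846 to 22.7) and 6 of 27 Gata2WT peaks WT-only (22.2%, 10.6 to 40.8). At equal list lengths the counts were 4 of 21 cKO-only and 4 of 22 WT-only. Their shared sites were also evenly ranked, with a higher −log10 q in Gata2cKO at 10 of 20. Six2, which keeps nephron progenitors, had 1 cKO-only and 3 WT-only peaks. Six3, a forebrain and eye factor with 6 peaks in Gata2cKO and 7 in Gata2WT, had a WT-only distal peak of 20 fragments and a −log10 q of 8.71. Six5 shared all its 3 peaks. Six2 and Six3 lie next to each other on chromosome 17, and Six4 and Six6 lie close together on chromosome 12.

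The LIM homeobox genes had 5 of 33 Gata2cKO peaks cKO-only and 14 of 42 Gata2WT peaks WT-only (33.3%, 21.0 to 48.4). Isl2 had the strongest WT-only peak of all 57 genes, inside the gene at chromosome 9, 55542212 to 55542722, with 69 fragments and a −log10 q of 18.6. Lhx1 had 1 cKO-only and 4 WT-only peaks. Lhx2 had 3 of each. Lhx6 and Isl1 shared every peak, and the strongest Lhx6 site, inside the gene, had 77 fragments and 49.5 in Gata2cKO and 88 fragments and 53.1 in Gata2WT.

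The TALE homeobox genes had 9 of 39 Gata2cKO peaks cKO-only (23.1%, 12.6 to 38.3) and 10 of 41 Gata2WT peaks WT-only (24.4%, 13.8 to 39.3). Irx5, which acts in heart and eye, held the strongest site of all 57 genes, just outside the gene at chromosome 8, 92355735 to 92356660 in Gata2cKO. It had 148 fragments and a −log10 q of 94.4 in Gata2cKO, and 177 fragments and 110 in Gata2WT. Irx2 had a peak inside the gene with 84 fragments and 42.6 in Gata2cKO, and 93 fragments and 42.4 in Gata2WT. Irx1 had the third strongest cKO-only peak of the 57 genes, distal with 14 fragments and 6.02. Meis1, a partner of Hox proteins in blood and limb, had 1 cKO-only and 4 WT-only peaks. Irx1, Irx2 and Irx4 share 1 cluster on chromosome 13, and Irx5 and Irx6 share 1 on chromosome 8.

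The paired-like genes had 3 of 20 Gata2cKO peaks cKO-only and 7 of 25 Gata2WT peaks WT-only. Pitx1 had 1 cKO-only peak, inside the gene with 24 fragments and a −log10 q of 5.38, and 3 WT-only peaks. Otx1, a brain factor, had a WT-only distal peak with 17 fragments and 8.20, and a cKO-only gene-end peak with 17 fragments and 1.50. Gsc, known from the gastrula organizer, had a cKO-only gene-end peak with 14 fragments and 1.51 and 3 WT-only peaks.

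The Tbx genes had the widest gap between cKO-only and WT-only counts of the 9 families: 3 of 30 Gata2cKO peaks were cKO-only (10.0%, 3.46 to 25.6), whereas 15 of 41 Gata2WT peaks were WT-only (36.6%, 23.6 to 51.9). The WT-only interval includes the background of 28.5%. Tbx4 and Tbx5 made up 11 of these 15. Tbx4 had 1 cKO-only and 6 WT-only peaks, and Tbx5, a forelimb and heart factor, had 2 and 5. The Tbx5 WT-only peaks were weak, between 8 and 15 fragments, with a −log10 q of 1.37 to 3.94. The strongest WT-only Tbx4 peak, inside the gene, had 24 fragments and 7.01, and Tbx2 had a WT-only gene-end peak with 37 fragments and 6.94. With the Gata2WT list shortened to the length of the Gata2cKO list, 3 of 30 Tbx peaks were cKO-only and 13 of 39 were WT-only. Over all peaks the shares at equal lengths were 22.8% cKO-only and 23.1% WT-only. Tbx1 and Tbx18 shared every peak. Tbx2 and Tbx4 are close on chromosome 11, so their distal sites compete for the nearer end.

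The Emx, En, Gbx and Cdx genes had 4 of 21 Gata2cKO peaks cKO-only and 6 of 23 Gata2WT peaks WT-only. En1 had 2 cKO-only and 1 WT-only peaks, and En2, the cerebellar relative, had 1 cKO-only and 2 WT-only peaks. A WT-only peak lay at the gene end of En2, with 23 fragments and a −log10 q of 3.70. Emx1 had 4 shared peaks and 1 WT-only peak. Cdx2, the trophectoderm and gut factor, shared all 4 peaks; the one over its annotated start had 45 fragments and 18.1 in Gata2cKO, and 61 fragments and 21.6 in Gata2WT.

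Across the 9 families, WT-only peaks outnumbered cKO-only peaks in 8, all but Dlx, as they did over the whole lists, with 8710 cKO-only and 14060 WT-only peaks. With equal list lengths, where all peaks gave 10072 cKO-only and 10185 WT-only, this held in 5: Pax, Nkx, LIM, paired-like and Tbx. By gene, 12 genes shared every peak, 4 had cKO-only peaks alone (Dlx6, Pax3, Nkx6-1 and Irx1), 16 had WT-only peaks alone and 25 had both kinds. As shares of the 57 genes these were 21.1%, 7.02%, 28.1% and 43.9%. Over all 17077 protein-coding genes with a peak, these shares were 42.7% with every peak shared, 12.8% with cKO-only peaks alone, 24.1% with WT-only peaks alone and 20.4% with both kinds. The 2 sets are not like for like. The 57 genes held a median of 4 peaks in each list, against 1 and 2 over all protein-coding genes, and a gene with more peaks can more easily hold a single-list one.

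Relatives outside the list stood in the same range in these measures. Of 28 further genes of the same families, gene ends were marked in both lists for 23, in Gata2cKO alone for 1 (Tbx19) and in neither for 4 (Pax4, Tbx22, Tbr1 and Otx2). Their strongest gene-end peak had a median −log10 q of 11.6 in Gata2cKO and 16.0 in Gata2WT. Of 67 further developmental homeobox genes, gene ends were marked in both lists for 55, in Gata2cKO alone for 1 (Nanog), in Gata2WT alone for 4 and in neither for 7. Their medians were 12.2 in Gata2cKO and 14.4 in Gata2WT. CpG-rich start windows with a peak numbered 20 of 35 in Gata2cKO and 24 of 35 in Gata2WT for these homeobox genes, and 8 of 11 in both lists for the family relatives. Germ cell markers had medians of 33.4 in Gata2cKO and 37.4 in Gata2WT, against 37.0 and 45.1 over all protein-coding genes with such a peak. Markers of somatic cells lay nearer to the homeobox genes, at 13.3 in Gata2cKO and 15.8 in Gata2WT for supporting cells, 17.4 and 20.8 for mesonephric epithelium, 7.95 and 7.26 for stroma, and 12.6 and 22.3 for endothelium, while the 4 erythroid markers with such a peak had 32.8 and 33.0.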

How the data were processed

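ATAC-seq was made from 4 samples, 2 per genotype, and the processed data were 1 combined MACS2 narrow peak list per genotype; groups follow the labelled genotype. The submitters' processing notes name Trimmomatic 0.39 and Bowtie2 2.3.5.1 for reads, SAMtools and Picard 2.23.0, then MACS2 2.2.6 beside bedtools 2.29.2; the build was GRCm38 (mm10). Not given in the sources used here are their parameters, the Tn5 read shift, the duplicate filter and the pooling of replicates. A deeper replicate could weigh more in a combined list.

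The deposited fold enrichment is the ratio of the summit pileup to the local background of the same list, after the same small count is added to each. The deposited −log10 p and −log10 q rate that pileup against the background, and the deposited score equals 10 times the −log10 p, rounded down. The smallest −log10 p was 3.00 in both lists. No scaling between genotypes was applied to these values.

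Rows with the same interval were merged and the highest summit kept, so that on the 19 autosomes and X 52236 Gata2cKO rows gave 44139 peaks and 58357 Gata2WT rows gave 49394. Depth came from the peaks: fold enrichment and −log10 p were solved together for the pileup, with 1 added to pileup and background in the fold. The pileup came out whole, within 0.001 in −log10 p, for 99.9955% of Gata2cKO and 99.996% of Gata2WT peaks. A fragment is whatever unit the peak caller piled up. Sites shared at least 1 bp. Genes came from the RefSeq table of GRCm38.p6, which gives spans but no transcripts. Work was done in Python 3.11.15 with pandas 2.3.3, numpy 2.4.6, scipy 1.17.1 and matplotlib 3.10.9. Simulated data were used to test the solving of pileups, the 1 bp overlap and the giving of peaks to genes, and no other step.

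The genes and lists were chosen with earlier results of these data known. The text names genes whose gene-end status differs, the genes with most peaks and most single-list peaks per family, the 5 strongest cKO-only and the 5 strongest WT-only peaks, and the 5 widest gene-end peaks. Other named genes were chosen after their values were seen. One homeobox symbol of 68 was not found in the gene table. Other settings tried were the overlap that counts as shared, peak threshold and list length, the gene-end window, distance, peak position, the genes of the annotation and the CpG windows. The CpG alternatives and those for gene-end strength were added after the data had been seen.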

Additional observations from a re-analysis of the deposited data

How the results depend on the processing

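No paired analysis was possible because each genotype has 1 combined list. Of the recomputed main values, 114 stayed within their interval or 1.5 times and 13 moved. With highest summits within 250 bp counted as shared, 31.1% of Gata2cKO peaks were cKO-only and 40.8% of Gata2WT peaks were WT-only, against 26.9% and 34.6% of all peaks. At a −log10 q of at least 2, 1 gene (Pax1) had a gene-end peak in Gata2cKO alone. At 5 or more the median fell to 2 peaks per gene in Gata2cKO and 2 in Gata2WT, the median −log10 q of Gata2cKO gene-end peaks was 12.0, 2 genes (Irx6 and Lhx6, in place of Pax3 and Pax7) had a gene-end peak in Gata2cKO alone and 4 (Dlx2, Gbx1, Isl2 and Tbx15) in Gata2WT alone. With equal list lengths, 5 families had more WT-only than cKO-only peaks. A gene-end window of 0.5 kb left 1 gene with a gene-end peak in Gata2cKO alone (Pax3), one of 2 kb left 0 in Gata2WT alone, and placing peaks by their highest summit gave 4 in Gata2cKO alone (Cdx1, Pax3, Pax7 and Tbx15). With 500 more bases on either side, 78.9% of CpG-rich windows had a peak in Gata2cKO and 81.6% in Gata2WT. The cause of these moves was not tested. Among values of single genes, 474 stayed and 120 moved. The gene-end calls of Pax3, Pax7, Pax5 and Tbx4 rest on 12 to 27 fragments, and the depth per replicate was not analysed here.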

Other observations

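Very strong peaks were rare among the 57 genes. A −log10 q of 30 and over was reached by 9 of 257 Gata2cKO peaks, at Gbx2, Irx2, Irx5, Isl1, Lhx2, Lhx6, Pax5 and Tbx4, and by 16 of 299 Gata2WT peaks, against 8648 of 44139 and 9995 of 49394 over all peaks. Among relatives in the same families that are not on the list, Otx2, an epiblast and forebrain factor, had 9 peaks in Gata2cKO and 8 in Gata2WT with none at a gene end. Irx3 had 1 peak in Gata2cKO and 5 in Gata2WT, 4 of them WT-only. Eomes, which acts in early mesoderm and trophoblast, had 4 peaks in Gata2cKO and 7 in Gata2WT, with 1 cKO-only and 4 WT-only. Tbx10 was given the strongest gene-end peak of these relatives, with a −log10 q of 90.5 in Gata2cKO and 104 in Gata2WT. A peak near the ends of several genes counts for each, and which gene it serves was not tested. Mga, which is active in many cell types, had 40.2 in Gata2cKO and 66.8 in Gata2WT. Lhx8, needed in oocytes, had gene-end peaks of 3.41 in Gata2cKO and 2.19 in Gata2WT, and Lhx9, a gonad formation factor, had 10.7 and 17.1.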
